A study of Mus musculus with 4 samples.

Results

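Imprinted genes were followed in mouse E14 embryonic stem cells after a short exposure to valproic acid (VPA). Members were chosen by name: 36 genes known in the mouse to be imprinted, that is expressed wholly or mainly from the copy of a single parent in at least some tissues, and a gene was measured where a probe set of the array carried its symbol and no other. This held for 29 of the 36, among 19938 genes with such a probe set and 35556 probe sets in all. H19, Kcnq1ot1 and Zrsr1 had no probe set listed under their names and Mirg, Snrpn, Ube3a and Gnas only probe sets shared with other symbols, so these 7 genes were not analysed here.

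Total RNA was hybridised to 4 one-colour Affymetrix arrays, 2 from untreated E14 cells and 2 from E14 cells with 0.5 mM VPA in the medium for 4 h. The titles of the untreated arrays give 4 h as well. E14 is an established mouse embryonic stem cell line, and VPA is a branched short-chain fatty acid that inhibits histone deacetylases. Cells of both groups grew in medium with serum and leukemia inhibitory factor on primary embryonic fibroblasts treated with mitomycin C, so RNA of the feeder layer may be part of every sample. The labels call the arrays of a group replicates without saying whether they came from separate cultures, so the p-values cover the spread of these arrays alone, and that spread may be technical. The question of the series is how a low dose of a deacetylase inhibitor, given briefly, alters expression. The values are log2 signals on which a step of 1 is a doubling, and the signal of a probe set says nothing of how its gene's abundance compares with that of another gene.

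Imprinted genes lie in domains that share an imprinting control region, a CpG-rich stretch methylated on the copy from a single parent. That mark is set in the germ line and kept through early development, and within a domain it directs some genes to the maternal and others to the paternal copy, often by way of a long non-coding RNA. Histone deacetylation and methylation accompany the silent copy. Many of the products act on growth: in general, paternally expressed genes such as Igf2 favour growth and maternally expressed ones such as Cdkn1c, Grb10 and Igf2r restrain it. The arrays measured the RNA of both copies together, so the allele classes below are those known from the mouse and were not read from these data.

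None of the 29 measured imprinted genes passed the test after VPA. With limma and Benjamini-Hochberg adjustment over all probe sets 0 were called, against 0% of all represented genes, and the smallest adjusted p among them was 0.545, for Peg3. At an unadjusted p under 0.05, 0 imprinted genes were higher and 0 lower, against 5.9% and 2.71% of all represented genes, or 8.61% in all. After a second quantile normalization the background shares were 4.33% and 3.74%. By group means 14 were higher with VPA, 14 were lower and Zim1 was equal, where 53.6% of all represented genes were higher. The differences lay between −0.42 (Igf2) and 0.44 (Rian) on the log2 scale, which is 1.34-fold down and 1.36-fold up. Their median was 0, beside 0.015 over all represented genes. The 95% confidence interval held 0 for each of the 29 and lay within 2-fold in either direction for each, and for 23 it lay within 1.5-fold. With 2 arrays a group, the smallest p that an exact two-sided permutation test of a single gene can reach is 0.33.

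Single replicates differed by about as much as the group means did. Over the 29 genes the median absolute difference between arrays was 0.14 in untreated and 0.127 in VPA cells, against 0.133 between the group means. Over all represented genes the same measures were 0.143, 0.12 and 0.116. A mean of 2 arrays varies less than a single array, so these values do not tell whether the groups differ. In 13 of the 29, or 44.8%, the 2 groups did not overlap, 7 with VPA higher and 6 with VPA lower. The corresponding share of all represented genes was 42.2%, made up of 24.1% higher and 18.1% lower, so the share among imprinted genes is near the background. Group means at least 1.5-fold apart without overlap were found in 0 imprinted genes, against 0.973% of all represented genes higher and 0.266% lower. VPA replicate 2 was the lowest array for 11 of the genes and VPA replicate 1 for 2.

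**Figure D1:**
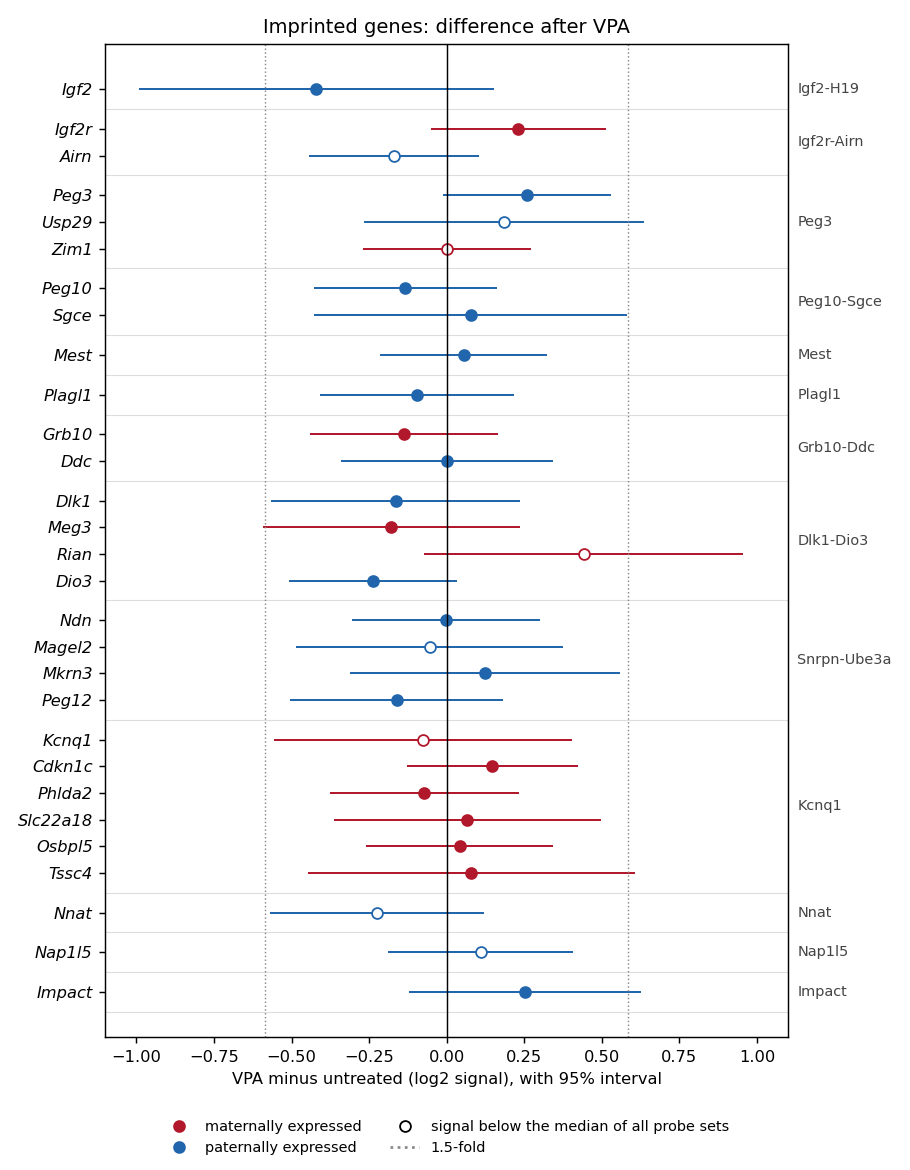
Difference between VPA and untreated means for the 29 imprinted genes, in log2 signal (x axis), grouped by imprinted domain (named at the right), with points for the difference and lines for its 95% confidence interval (limma, n = 2 arrays a group); red marks maternally and blue paternally expressed genes, open points a signal below the median of all probe sets, and dotted lines 1.5-fold. Every line crosses 0, and the points run from −0.42 (Igf2) to 0.44 (Rian).

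Promoter sequences are shown for the 4 genes of smallest unadjusted p, which differ in how many CpGs they hold. CpG methylation marks imprinting control regions, and whether these promoter sequences lie in such a region was not examined. They are the 250 bases before a transcript start in RefSeq on GRCm38.p6, which lists such a stretch for 24 of the 29 genes, and are written 5′ to 3′ on the strand of the gene with each CpG in capitals. The positions are chr7:6730420-6730669 on the minus strand for Peg3, chr12:110278980-110279229 on the plus strand for Dio3, chr12:109603695-109603944 on the plus strand for Rian and chr17:12769707-12769956 on the minus strand for Igf2r. No build is given for the array itself.
Peg3: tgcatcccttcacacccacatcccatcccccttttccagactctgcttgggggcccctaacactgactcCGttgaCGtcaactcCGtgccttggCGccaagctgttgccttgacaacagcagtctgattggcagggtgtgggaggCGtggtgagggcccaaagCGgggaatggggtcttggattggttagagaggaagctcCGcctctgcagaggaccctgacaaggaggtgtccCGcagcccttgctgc
Dio3: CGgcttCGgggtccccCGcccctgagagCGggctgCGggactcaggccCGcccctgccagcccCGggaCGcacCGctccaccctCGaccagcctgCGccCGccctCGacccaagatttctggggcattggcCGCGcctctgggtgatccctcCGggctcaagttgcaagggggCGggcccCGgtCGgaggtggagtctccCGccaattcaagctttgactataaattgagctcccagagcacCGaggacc
Rian: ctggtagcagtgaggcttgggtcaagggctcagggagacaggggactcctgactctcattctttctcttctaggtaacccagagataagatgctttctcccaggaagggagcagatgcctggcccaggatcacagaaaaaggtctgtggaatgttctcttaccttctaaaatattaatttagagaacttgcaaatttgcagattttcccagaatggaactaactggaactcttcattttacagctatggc
Igf2r: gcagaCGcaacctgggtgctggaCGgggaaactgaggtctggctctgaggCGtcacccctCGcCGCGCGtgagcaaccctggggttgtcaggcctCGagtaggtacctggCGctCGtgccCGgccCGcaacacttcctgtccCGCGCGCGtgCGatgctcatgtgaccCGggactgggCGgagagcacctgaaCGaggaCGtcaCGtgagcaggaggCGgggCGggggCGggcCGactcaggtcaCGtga

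These stretches hold 8 CpGs in Peg3, 21 in Dio3, 0 in Rian and 27 in Igf2r. Their share of G and C is 60.4%, 69.6%, 45.2% and 69.2%. The median over the 34 listed promoters of imprinted genes was 10 CpGs, against 6 over all 32851 listed promoters, while 15 or more CpGs were held by 23.5% of the former and 27.3% of the latter. TGCCGC, the core of the motif bound by the imprint-protecting zinc finger protein ZFP57, was searched on both strands. It occurred in 7 of the 34 promoters (20.6%), in Mest, Nap1l5, Zim1, Osbpl5, Plagl1 and Meg3, and in 8.68% of all listed promoters. Mest counts for 2 of the 7 through overlapping stretches, and the 34 promoters belong to 24 genes. TGCCGC itself holds a CpG, and the 2 shares were not matched for the number of CpGs. None of the 4 sequences above holds these letters. A match is a description of the letters and not a binding site.

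The Igf2-H19 domain is represented by Igf2, which encodes a fetal growth factor and is expressed from the paternal copy. Its signal was 4.73 and 5.25 in untreated replicates 1 and 2, and 4.73 and 4.41 in VPA replicates 1 and 2. Untreated replicate 2 stood above the other 3 arrays, VPA replicate 2 below them, and the replicates numbered 1 were almost level. The difference was −0.42 ± 0.22 (SE, n = 2 a group) with an unadjusted p of 0.115 and an adjusted p of 0.62 in limma. Leaving out untreated replicate 1 gave −0.68 (adjusted p = 0.403), leaving out untreated replicate 2 gave −0.16, and the adjusted p over all alternatives ran from 0.403 to 0.946.

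Igf2r, the receptor that takes IGF2 up for degradation in lysosomes, is expressed from the maternal copy in most mouse tissues, and the paternally expressed non-coding RNA Airn silences it in cis. Igf2r lay at 8.05 and 7.95 in the untreated arrays and at 8.23 and 8.22 in the VPA arrays, with both VPA arrays above both untreated ones. That is a difference of 0.23 ± 0.11 (SE), with an unadjusted p of 0.0871 and an adjusted p of 0.586. Airn lay at 2.80 and 2.75 without VPA and at 2.62 and 2.59 with it, again without overlap but the other way. Its difference of −0.17 ± 0.10 (unadjusted p = 0.166, adjusted p = 0.671) came from a dim probe set, below the median signal of all probe sets (3.79). Whether Igf2r and Airn differed in their response was not tested, and whether Airn silences Igf2r in these cells was not measured.

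In the Peg3 domain the paternally expressed zinc finger gene Peg3 had the smallest p of all 29. Its signal was 6.37 and 6.35 in untreated cells and 6.63 and 6.61 in VPA cells. The replicates were close to each other and the groups did not overlap. The difference was 0.26 ± 0.10 (SE), about 1.197-fold, with an unadjusted p of 0.055 and an adjusted p of 0.545. Over the alternatives it ran from 0.18 to 0.27, with adjusted p between 0.404 and 0.93. Usp29, a paternally expressed ubiquitin protease gene that neighbours Peg3, was dim and overlapped between groups, at 2.72 and 3.001 against 3.21 and 2.88. Zim1, a maternally expressed zinc finger gene, lay at 2.90 and 2.89 in untreated and at 2.89 and 2.90 in VPA arrays, also dim.

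The Dlk1-Dio3 domain holds protein genes read from the paternal copy and non-coding RNAs read from the maternal copy. Of the protein genes, Dio3 encodes the deiodinase that inactivates thyroid hormone. It lay at 4.46 and 4.43 in untreated cells and at 4.20 and 4.21 in VPA cells, without overlap, a difference of −0.24 ± 0.10 (SE; unadjusted p = 0.0715, adjusted p = 0.565). Dlk1, a membrane protein related to Notch ligands, lay at 5.61 and 5.27 against 5.33 and 5.22, where the groups overlapped because untreated replicate 2 fell between the VPA arrays. Its difference of −0.17 turned to 0.0046 without untreated replicate 1.

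Of the maternal RNAs in this domain, Meg3 lay at 6.60 and 6.83 in untreated and at 6.69 and 6.39 in VPA arrays, with overlap. Rian, which hosts small nucleolar RNAs, lay at 3.15 and 2.75 against 3.57 and 3.22. VPA replicate 1 was its highest array and untreated replicate 2 its lowest, while untreated replicate 1 and VPA replicate 2 were nearly level. The probe set was dim, and the difference was 0.44 ± 0.20 (SE; unadjusted p = 0.0767, adjusted p = 0.571). The difference became 0.64 when untreated replicate 1 was left out and 0.24 when untreated replicate 2 was, with adjusted p between 0.413 and 0.93 over the alternatives. Of the 4 measured genes 3 were lower and Rian was higher. A further 44 genes that RefSeq places between Dlk1 and Dio3, of which 40 are miRNA genes, were mostly of low signal. Of these, 33 were dim, 20 were higher and 24 lower, 0 had an unadjusted p under 0.05, and their median was −0.028. The probe sets may read the longer host transcripts too, and their values are not levels of mature miRNAs.

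In the Kcnq1 domain the 6 measured genes among the 29 are all maternally expressed. Cdkn1c, the cyclin-dependent kinase inhibitor p57, lay at 7.20 and 7.27 in untreated and at 7.39 and 7.37 in VPA cells, without overlap. Its difference was 0.15 ± 0.11 (SE), or 1.11-fold, with an unadjusted p of 0.223 and an adjusted p of 0.723. Phlda2, which restrains placental growth, lay at 8.45 and 8.56 against 8.50 and 8.37. Its groups overlapped, as did those of the other 4 genes of the domain. Slc22a18, a transporter gene, lay at 5.08 and 4.71 against 4.89 and 5.04. Tssc4 lay at 5.54 and 5.88 against 6.01 and 5.58. The lipid-binding protein gene Osbpl5 lay at 3.94 and 4.03 against 3.96 and 4.10, and the potassium channel gene Kcnq1, which was dim, at 3.22 and 3.60 against 3.48 and 3.18. By means 4 of the 6 were higher and 2 lower, over a range from −0.076 to 0.15.

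The Snrpn-Ube3a domain, whose human counterpart is affected in Prader-Willi and Angelman syndromes, gave 4 paternally expressed genes. None of them separated the groups. Ndn, which encodes the growth suppressor necdin, lay at 6.01 and 6.14 in untreated and at 6.13 and 6.02 in VPA cells, a difference of −0.0033 ± 0.12 (SE). The ring finger gene Mkrn3 lay at 4.59 and 4.40 against 4.80 and 4.43. Peg12 lay at 4.47 and 4.34 against 4.36 and 4.13, and Magel2, related to necdin and dim here, at 3.88 and 3.58 against 3.82 and 3.54. In Mkrn3 and Magel2 the replicates numbered 1 were above those numbered 2 in both groups, by more than the groups differed.

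Other domains gave 1 or 2 measured genes. The retrotransposon-derived gene Peg10, needed for the placenta, lay at 10.01 and 9.87 in untreated and at 9.83 and 9.78 in VPA cells, without overlap, a difference of −0.13 ± 0.11 (SE). Its neighbour Sgce, a sarcoglycan gene, lay at 4.54 and 4.11 against 4.26 and 4.54, where untreated replicate 1 and VPA replicate 2 were level. Grb10, an adaptor that dampens insulin signalling, lay at 8.15 and 8.26 against 8.13 and 7.9996, without overlap and by a narrow gap. Its neighbour Ddc, the decarboxylase that makes dopamine and serotonin, lay at 5.89 and 6.12 against 5.95 and 6.06.

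The remaining genes are all paternally expressed. Impact, a regulator of translation under amino acid shortage, lay at 9.42 and 9.13 in untreated and at 9.47 and 9.59 in VPA cells. Untreated replicate 2 was well below the other arrays, and the difference was 0.25 ± 0.14 (SE; unadjusted p = 0.14, adjusted p = 0.645). Impact differed by 0.11 when untreated replicate 2 was left out and by 0.40 when untreated replicate 1 was. Mest, of the hydrolase family, lay at 7.75 and 7.74 against 7.80 and 7.80, and its difference of 0.054 became −0.015 after a second quantile normalization. Plagl1, a zinc finger transcription factor, lay at 4.03 and 3.85 against 3.88 and 3.80, with overlap. Of the dim genes, Nnat, a small membrane proteolipid, lay at 3.34 and 3.21 against 2.94 and 3.17, a difference of −0.22 ± 0.13 (SE; unadjusted p = 0.152, adjusted p = 0.656), and Nap1l5 at 3.07 and 3.16 against 3.29 and 3.16. In Nnat and Nap1l5 the groups did not overlap, but in Nap1l5 untreated replicate 2 and VPA replicate 2 were nearly level.

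**Figure D2:**
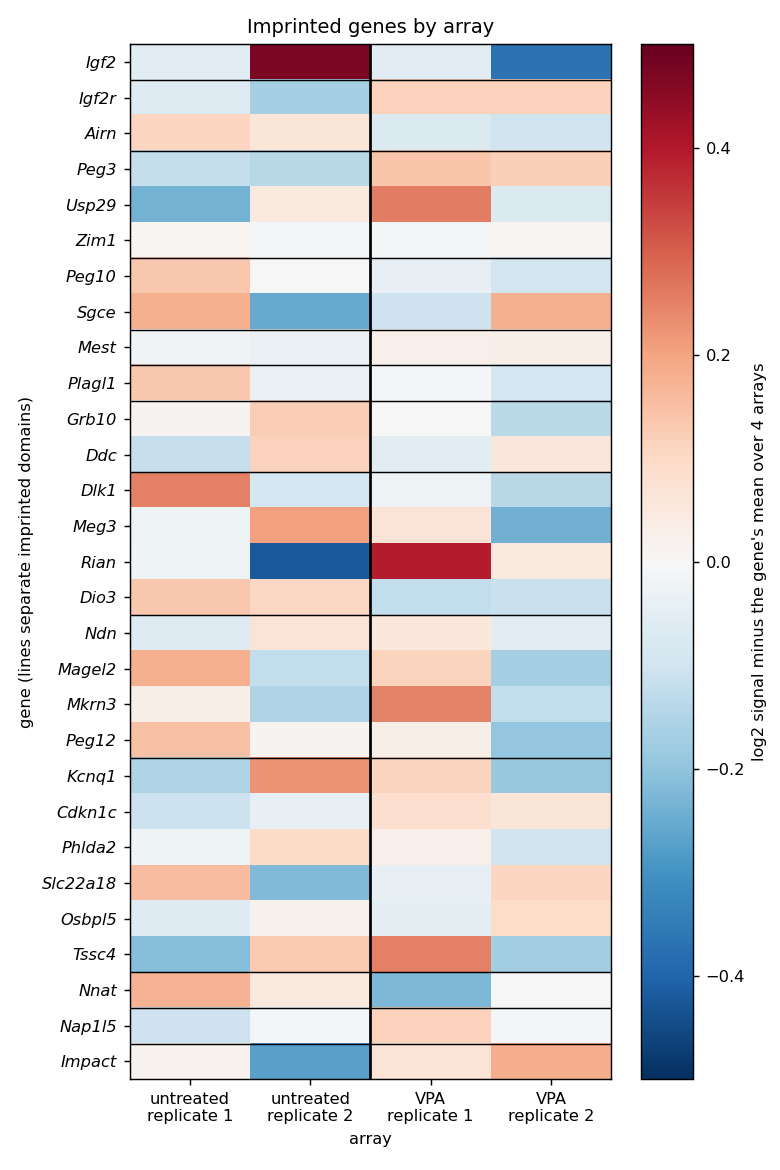
Signal of the 29 imprinted genes on each array as colour, in log2 units from the gene's mean over the 4 arrays (red above, blue below), with a row for each gene, thin lines between imprinted domains and a thick line between untreated and VPA arrays. Igf2 on untreated replicate 2 and Rian on untreated replicate 2 and VPA replicate 1 are the strongest colours. In 13 of the 29 genes (44.8%) the groups do not overlap, against 42.2% of all represented genes.

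Split by the expressed copy, neither class stood apart. Of the 11 measured maternally expressed genes 6 were higher with VPA, 4 lower and 1 equal, with a median difference of 0.041, and of the 18 paternally expressed genes 8 were higher and 10 lower, with a median of −0.029. To set the classes beside the arrays, each gene's mean over the 4 arrays was subtracted and the median over the class taken on each array. For maternally expressed genes these medians were −0.026 and 0.022 in untreated replicates 1 and 2 and 0.063 and 0.0090 in VPA replicates 1 and 2. For paternally expressed genes they were 0.069 and −0.0050 in untreated and 0.0086 and −0.081 in VPA arrays. In both classes the groups overlapped. The within-group SD of these medians was 0.036 for the maternal and 0.058 for the paternal class. Single arrays moved the class medians: the paternal one was −0.0024 without untreated replicate 1, −0.052 without VPA replicate 2, −0.086 without VPA replicate 1 and −0.15 without untreated replicate 2. The maternal one was 0.083 without untreated replicate 2, −0.0012 without untreated replicate 1, 0.0090 without VPA replicate 1 and −0.0085 without VPA replicate 2.

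**Figure D3:**
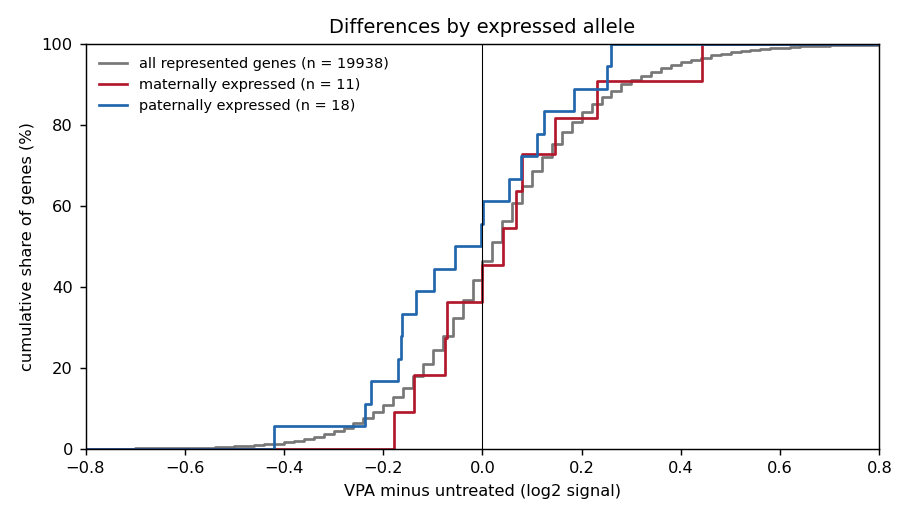
Cumulative share of genes (y axis, %) at or below each difference between VPA and untreated means (x axis, log2 signal) for the 11 maternally expressed genes (red), the 18 paternally expressed genes (blue) and all 19938 represented genes (grey). The median is 0.041 for the maternal, −0.029 for the paternal class and 0.015 for all genes. The median absolute difference is 0.0796 for the maternal, 0.147 for the paternal class and 0.116 for all genes.

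Among the 21 imprinted genes at or above the median signal of all probe sets, 11 were higher and 10 lower with a median of 0.0017, where represented genes of that range had a median of 0.056. Among the 8 dim ones, 4 did not overlap between groups and the median was −0.027. Of the dim represented genes 33.9% did not overlap, and their median was −0.018. Whether dim genes were expressed at all was not tested.

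A second list held 52 other genes reported as imprinted in some mouse tissue, of which 42 were measured. Of these 21 were higher and 21 lower with VPA, with a median of 0.0069, and 5 were higher and 0 lower at an unadjusted p under 0.05, beside the 5.9% and 2.71% of all represented genes given above. None was called after adjustment over all probe sets. Tnfrsf22, a decoy receptor gene, lay at 5.96 and 6.06 in untreated and at 6.42 and 6.51 in VPA cells, a difference of 0.45 ± 0.11 (SE; unadjusted p = 0.00996, adjusted p = 0.479). Sfmbt2, a Polycomb-related gene, lay at 6.32 and 6.57 against 6.98 and 6.78. Inpp5f, a phosphoinositide phosphatase gene, was 0.34 ± 0.12 higher and Dhcr7, an enzyme of cholesterol synthesis, 0.30 ± 0.11. In these 4 genes, picked by their p, both VPA arrays lay above both untreated arrays, as they did in 24.1% of all represented genes. The 5 genes became 1 after a second quantile normalization and 1 without VPA replicate 1, and 2 without untreated replicate 2 or without VPA replicate 2.

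Genes that set, keep or read the imprint made up a further list of 24 genes, all of them measured. Of these 11 were higher and 13 lower with a median of −0.030, and 1 was higher and 2 lower at an unadjusted p under 0.05, beside the same 5.9% and 2.71%. The 2 lower became 0 without VPA replicate 2 and 1 without untreated replicate 2 or without VPA replicate 1, and the 1 higher became 2 without untreated replicate 1. Kdm1b, a histone H3 lysine 4 demethylase needed in oocytes to set maternal imprints, lay at 5.02 in both untreated arrays and at 5.83 and 5.73 in VPA arrays. That is a difference of 0.76 ± 0.11 (SE), or 1.69-fold, with an unadjusted p of 0.000948 and an adjusted p of 0.462, and over the alternatives it ran from 0.71 to 0.81 with adjusted p between 0.321 and 0.93. Zfp57, whose product protects methylated imprinting control regions after fertilisation, lay at 10.90 and 10.88 against 10.53 and 10.41. Its difference was −0.42 ± 0.11 (SE), or 1.34-fold, with an unadjusted p of 0.0129 and an adjusted p of 0.485, and it ran from −0.48 to −0.36 over the alternatives. Mbd3, a subunit of a deacetylase complex, differed by −0.37 ± 0.14 and Arid4b, a partner of another such complex, by 0.26 ± 0.12. Trim28, the corepressor that ZFP57 recruits, lay at 11.71 and 11.68 against 11.62 and 11.59, and the maintenance methyltransferase gene Dnmt1 at 9.12 and 9.29 against 9.24 and 9.13. Trim28 and Dnmt1 were chosen after their values were seen, as regulators of high signal, and not all regulators of high signal are named.

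**Figure D4:**
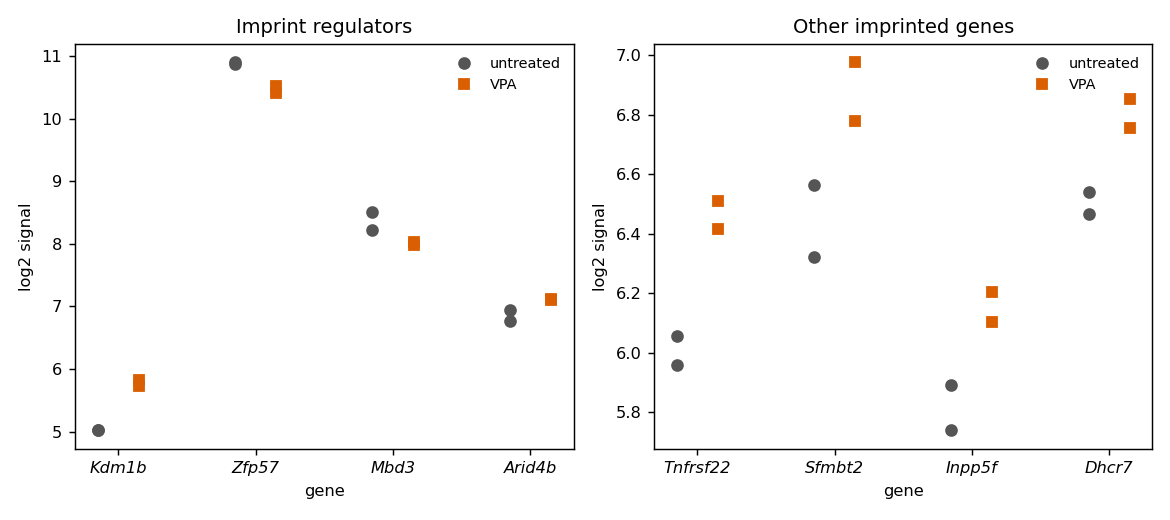
Log2 signal (y axis) on each array of the 4 genes of smallest unadjusted p among imprint regulators (left) and among other imprinted genes (right), with circles for untreated and squares for VPA arrays. The groups of these 8 genes, which were picked by p, do not overlap, as in 42.2% of all represented genes; the means of Kdm1b are 0.76 apart, and none of the 8 passed the adjusted test.

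Markers of the cells in the culture were read for the same arrays. Pluripotency markers were all above the median signal, and Dppa5a (12.65 and 12.40 against 12.66 and 12.61) and Tdgf1 (11.88 and 11.74 against 11.90 and 11.95) had the highest signals of the list and were among its 4 genes that were higher with VPA. Of its 15 genes 11 were lower, 9 of them without overlap (18.1% of all represented genes), and the median of the 15 was −0.19. In limma 3 were lower at an unadjusted p under 0.05 (2.71% of all represented genes) and 0 after adjustment. These 3 were Nanog (−0.48), Utf1 (−0.33) and Lin28a (−0.34), named after their values were seen, and the mean signal of the list was 9.77 and 9.71 in untreated and 9.58 and 9.62 in VPA arrays. Feeder markers gave 20 lower and 9 higher of 29, a median of −0.067 and mean signals of 5.43 and 5.50 against 5.41 and 5.40. Of the 29 feeder markers 4 were dim. At an unadjusted p under 0.05 in limma 1 feeder marker was higher (Thy1, 0.31) and 1 lower (the dim Ccdc80, −0.31), and 0 passed after adjustment. Of all represented genes 5.9% were higher and 2.71% lower at that p. Vim (10.28 and 10.21 against 10.19 and 10.26) and Fn1 (9.91 and 10.05 against 9.97 and 9.97) had the highest signals, and embryonic stem cells express these 2 as well. Fibroblasts also express several imprinted genes, and fewer cells of a type cannot be told apart from less RNA per cell in such samples. The part of the feeder layer in the values of the imprinted genes was not tested.

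Markers of cells that could arise by differentiation gave small counts. Trophoblast markers had 4 higher and 3 lower of 7, with a mean signal of 4.05 and 4.08 in untreated and 4.00 and 4.01 in VPA arrays, led by Tead4 (5.93 and 5.87 against 5.59 and 5.78) and Eomes (4.93 and 4.96 against 5.001 and 4.93). In limma 0 of the 7 had an unadjusted p under 0.05, and 0 were higher and 3 lower without overlap. Endoderm markers had 3 higher and 7 lower of 10, with mean signals of 4.05 and 4.00 against 3.89 and 3.91. Their brightest were Lama1 (7.38 and 7.46 against 7.21 and 7.13) and Sox7, whose difference was −0.59 ± 0.17 (SE; unadjusted p = 0.0199, adjusted p = 0.5). At an unadjusted p under 0.05 in limma 1 endoderm marker was higher, Dab2 (0.36), and 2 were lower, Sox7 and the dim Gata6 (−0.42). The shares of all represented genes were 5.9% and 2.71%, and 0 endoderm markers passed after adjustment. Without overlap 3 were higher and 5 lower, against 24.1% and 18.1% of all represented genes. Neural markers had 4 higher and 5 lower of 9, with mean signals of 4.85 and 4.82 against 4.72 and 4.81, and Stmn2 (9.46 and 9.39 against 9.52 and 9.65) and Tubb3 (6.92 and 6.66 against 6.48 and 6.42) were the brightest. In limma 0 neural markers were higher and 1 was lower at an unadjusted p under 0.05, the dim Pax6 (−0.37). Without overlap 2 were higher and 3 lower. The part of such cells in the values of the imprinted genes was not tested.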

How the data were processed

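Per the submitters' processing notes, the authors ran RMA (background correction, quantile normalization and summary per probe set) in version 1.1 of Affymetrix Expression Console. The table deposited by them holds the resulting log2 signal of each probe set. Not given in the sources used here is the set of arrays normalized together, and detection calls were not used. Gene names came from the platform annotation: 21789 probe sets had 1 symbol, 1621 several and 12146 none here. Where a gene had several, the probe set of highest mean signal stood for it, but each imprinted gene measured had only 1. Differences are VPA minus untreated means, rounded to 4 decimals. They were tested two-sided with limma 3.58.1 (lmFit, then eBayes; R 4.3.3) over all 35556 probe sets, with treatment as the only term and Benjamini-Hochberg adjustment, at a threshold of 0.05. The 2 residual degrees of freedom were raised by 2.93 through moderation, and the number of arrays limits the precision. The scripts were tested on simulated data.

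Arrays had medians between 3.80 and 3.82, and Pearson's r over probe sets was 0.988 to 0.993 between them. Untreated replicates 1 and 2 differed with an SD of 0.311 over probe sets, and VPA replicates 1 and 2 with an SD of 0.285. Set against the VPA arrays, untreated replicate 1 gave 0.297 and 0.301 and untreated replicate 2 gave 0.332 and 0.36.

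The imprinted genes and the other lists were chosen with earlier results of these data known. Expressed copies and domains came from textbook knowledge. All measured imprinted genes are named. Of the other imprinted genes and the imprint regulators the 4 of smallest p are named, and of each marker list the 2 of highest mean signal and any with an unadjusted p under 0.01. Markers with an unadjusted p under 0.05 were added after their values were seen. Alternatives were a second quantile normalization, a shift of the arrays to 1 median, dim probe sets left out, the mean of a gene's probe sets, trend and robust moderation, a replicate block, and each array left out.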

Additional observations from a re-analysis of the deposited data

How the results depend on the processing

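No imprinted gene was called at an adjusted p under 0.05 in any of the 10 alternatives. Only 6 of them, the normalizations and the left-out arrays, can move a gene's difference here: of the 174 values they gave, 21 changed direction, in 11 of the 29 genes. With the replicate block, 1 imprinted gene (Rian, unadjusted p = 0.0245, adjusted p = 0.677) was higher at an unadjusted p under 0.05 and 0 were lower. The shares of all represented genes with this block were 3.95% higher and 1.57% lower, where they were 5.9% and 2.71% without it. The other imprinted genes higher at that p went from 5 to 1 and the imprint regulators lower from 2 to 1. The labels link replicates of the 2 groups by a number alone. The correlation of their deviations over probe sets was −0.0966, and 2 pairs cannot tell whether arrays of the same number belong together. Leaving out each array in turn gave 0 to 2 genes higher and 0 to 1 lower at an unadjusted p under 0.05, and 0 to 1 in each direction at least 1.5-fold apart without overlap. Without untreated replicate 1 the genes at that p were Rian (0.64) and Impact (0.40) higher and Igf2 (−0.68) lower. The shares of all represented genes at that p were of similar size in this fit, so the imprinted genes did not stand out. A lone array overlaps the other group less often by design, so the 1.5-fold counts cannot be set beside the shares from all arrays. In such fits the lone array of a group is assumed to vary like the other group and like the other probe sets. The median of the imprinted genes was −0.054 after a second quantile normalization, where that of all represented genes was −0.0042, and −0.063 to −0.0012 with an array left out. The maternal median ran from −0.0085 to 0.083 and the paternal from −0.15 to −0.0024. The cause was not tested.

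Directions turned as follows. After a second quantile normalization Mest was −0.015, Ddc −0.073, Vim 0.0076 and Eomes −0.022, and with arrays shifted to 1 median Ddc was −0.0041. With an array left out the lowest and highest differences were −0.14 and 0.29 for Sgce, −0.11 and 0.12 for Ddc, −0.33 and 0.0046 for Dlk1, −0.069 and 0.062 for Ndn, and −0.20 and 0.094 for Magel2. They were −0.063 and 0.31 for Mkrn3, −0.26 and 0.11 for Kcnq1, −0.12 and 0.26 for Slc22a18, −0.028 and 0.11 for Osbpl5, and −0.13 and 0.29 for Tssc4. Among markers they were −0.055 and 0.020 for Vim, −0.082 and 0.062 for Fn1, −0.017 and 0.24 for Dppa5a, and −0.018 and 0.056 for Eomes. For Dnmt1 they were −0.11 and 0.064. Dim genes have no value where dim probe sets were left out.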
